A study of Mus musculus with 24 samples.

Results

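The repair of DNA double-strand breaks and of crosslinks between DNA strands was followed through the transcripts of 41 genes in 8 mouse astrocyte lines that carried no p53 or 1 of 3 p53 mutants. The genes were taken by name from a list of repair genes, and all 41 were among the 14427 genes of the deposited count table. They comprised 5 checkpoint and signalling genes, 5 genes of the MRN complex and of end resection, 14 genes of homologous recombination, 11 genes of the Fanconi anaemia pathway, and 6 genes of end joining. The question addressed was how the transcripts of each group differed between a mutant line and the p53 KO line of the same sex, and whether the effect of a mutation differed between males and females.

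A double-strand break is bound by the MRN complex, which activates the kinase ATM, whereas single-stranded DNA activates the kinase ATR, and the kinases CHEK2 and CHEK1 pass these signals on to the cell cycle. Ends can be joined directly, after the Ku proteins encoded by *Xrcc5* and *Xrcc6* have bound them, or they can be trimmed back by nucleases so that, with the help of BRCA1, PALB2, and BRCA2, an intact sister chromatid can serve as the template. The Fanconi anaemia proteins form a complex that attaches ubiquitin to FANCD2 and FANCI at crosslinks, and they hand the lesion to the recombination proteins. Recombination needs a sister chromatid and is used in the S and G2 phases, and many of its genes are transcribed mainly in cycling cells.

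RNA-seq was performed on male and female lines of 4 genotypes, with 3 libraries per line and 24 libraries in all. Cortical astrocytes of C57BL/6 background were taken at postnatal day 1 from *Trp53* f/- pups, and cells of several pups of a sex were combined into 1 male and 1 female culture. Every line received a Cre lentivirus and puromycin selection, which removed the floxed *Trp53* allele, so all lines lacked wild-type p53. The p53 KO line received nothing else. The p53 R172H, p53 Y202C, and p53 Y217C lines also received a retrovirus that drives the mutant p53 together with eGFP, and were sorted for eGFP. The mutation therefore cannot be told apart from the retrovirus and the sort, nor the sex from the culture. The labels give passages 10 to 15. The libraries of a line were independent thaws and platings of in vitro cultures as the methods describe them, so p-values reflect how much platings of 1 line varied, and carry nothing about variation among animals. The 3 comparisons of a sex share the same 3 KO libraries.

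Total counts ranged from 52787288 to 136503809 per library, with a median of 80684345, and a repair gene had between 55 and 10214 counts in a library. *Trp53*, which is expressed from the retrovirus in the mutant lines, stood at 53.7, 50.7, and 48.2 CPM (read counts scaled to the size of the library) in male KO and at 51.9, 46.5, and 48.4 CPM in female KO. It stood at 2310, 2200, and 2350 CPM in male R172H, 2440, 2270, and 2260 CPM in male Y202C, and 1190, 1250, and 1210 CPM in male Y217C. In the female lines it stood at 1890, 2020, and 1960 CPM in R172H, 602, 605, and 572 CPM in Y202C, and 3550, 3870, and 3710 CPM in Y217C. Every mutant library was above every KO library, and female Y202C was the lowest of the mutant lines. Of 9 astrocyte markers, *Sox9* and *Gja1* were present in every line, with means of 80.0 to 183 CPM and 81.0 to 221 CPM. The mean of *Slc1a3* ran from 3.14 CPM in female Y217C to 281 CPM in female R172H. That of *Aldh1l1* ran from 0.0546 CPM in male R172H to 56.6 CPM in male Y217C. The mean of *Gfap* was at or under 0.257 CPM in all lines but male Y217C, where it was 6.93 CPM. *Aqp4* was at 0 in every library of male R172H and female KO. The means of *Slc1a2*, *S100b*, and *Aldoc* lay between 0.0657 and 7.82 CPM. The 9 markers summed to 197 to 653 CPM over the libraries, lowest in male Y202C and highest in female R172H. The summed level of 6 fibroblast or pericyte markers, which include the collagen gene *Col1a1*, ranged from 10100 to 44700 CPM over the libraries, with its lowest values in male Y202C at 10100 to 12300 CPM. Of the markers of other cell types that were in the table, the 3 neuronal ones summed to 31.3 to 137 CPM, the 3 of the oligodendrocyte lineage to 61.5 to 335 CPM, the 2 endothelial ones to 2.3 to 42.3 CPM, and the 1 of microglia to 0.198 to 3.18 CPM. The part of these levels in the results below was not tested. In bulk libraries, fewer cells of a type and less RNA per cell cannot be told apart.

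Levels are given as CPM after TMM scaling, and between genes they are compared only per kilobase of annotated exon. On that scale, over the mean of both KO lines, the repair genes ran from 0.364 CPM per kb for *Rad51b* to 13.1 CPM per kb for *Xrcc6*. *Xrcc6*, *Rad50*, *Nbn*, and *Xrcc5* were the highest 4, at 13.1, 11.1, 10.6, and 10.2 CPM per kb. *Rad51b*, *Palb2*, *Fancc*, *Fancl*, and *Atr* were the lowest 5, at 0.364, 0.655, 0.935, 0.961, and 1.06 CPM per kb. The length used covers all annotated exon bases of a gene, 23629 for *Atr*, so this order depends on the annotation. The end binders and the break sensors thus had higher levels per kb than *Brca1*, at 3.95 CPM per kb, or *Brca2*, at 2.1 CPM per kb.

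Every repair gene passed the test in at least 1 of the 6 comparisons with KO, as did 97.5% of all genes. Calls of higher or lower are those of edgeR's quasi-likelihood test at an adjusted p of 0.05 or less across the 14427 genes, and log2 fold changes carry their SE. Of the 41 genes, 21 were lower in at least 1 comparison and never higher, 6 were higher in at least 1 and never lower, and 14 went both ways, beside 23.3%, 25.5%, and 48.7% of all genes. Only *Exo1*, *Fancc*, and *Bard1* passed in all 6, *Exo1* as lower in all 6, *Fancc* as higher in all 6, and *Bard1* as lower in 5 and higher in male Y217C, beside 13.2% of all genes past in all 6, 2.56% lower in all 6, and 2.54% higher in all 6.

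The lines differed in how many repair genes were lower than in KO. In male Y202C, 28 of 41 repair genes (68.3%) were lower and 7 higher, with a median log2 fold change of -0.44, beside 35.4% of all genes lower and 37.6% higher. In female R172H, 28 (68.3%) were lower as well, beside 35.3% of all genes, and 6 higher, beside 34.4%, with a median of -0.47. In male Y217C, 17 were lower, beside 35.6% of all genes, and 10 higher, beside 34.9%, with a median of -0.07. In female Y202C, 17 were lower, beside 34.3% of all genes, and 7 higher, beside 34.3%, with a median of -0.14. The 17 lower genes are 41.5% of the 41, and the higher ones 24.4% in male Y217C and 17.1% in female Y202C. In the remaining lines the shares were near or under the background. In male R172H, 5 were lower, beside 20.5% of all genes, and 4 higher, beside 20.2%, with a median of 0.05. In female Y217C, 11 were lower, beside 28.7% of all genes, and 11 higher, beside 28%, with a median of 0.05. The median over all genes lay between -0.01 and 0.01 in each of these comparisons. Male Y202C had the lowest mean of the 8 lines for 21 repair genes and female R172H for 9, and no other line for more than 3. Single libraries weighed on the smaller counts. With limma voomWithQualityWeights 9 were lower and 9 higher in male R172H, and with only the lines compared 8 were lower. The shares of all genes under these 2 alternatives are not given here. The 5 lower genes in male R172H became 3 without male KO replicate 1 and 2 without male R172H replicate 2. The 6 higher genes in female R172H became 3 without female KO replicate 1 or without female R172H replicate 3. The 11 lower genes in female Y217C became 7 without female KO replicate 1, 6 without female KO replicate 2, and 5 without female Y217C replicate 1.

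**Figure D1:**
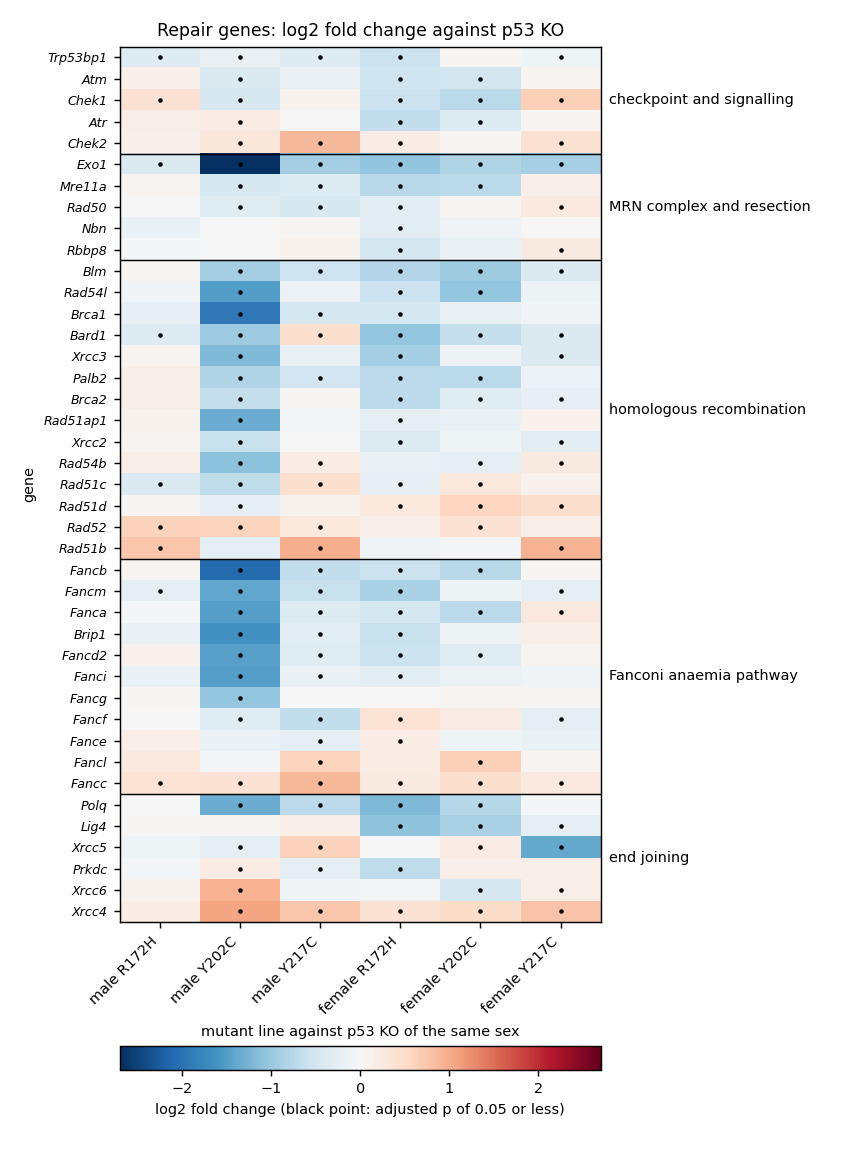
Colour map of the log2 fold change of each of the 41 repair genes (rows, grouped by role) in each of the 6 mutant lines against the p53 KO line of the same sex (columns); blue is lower and red higher than KO, and a black point marks an adjusted p of 0.05 or less. The male Y202C column holds the deepest blue, with *Exo1* at -2.68, and the female R172H column is blue for most rows, while male R172H and female Y217C have few marked cells of strong colour.

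Genes that are transcribed in cycling cells were counted beside the repair genes. Of 30 cell cycle reference genes (cyclins, MCM helicase subunits, mitotic kinases, and E2F factors), 29 were lower in male Y202C, with a median log2 fold change of -1.39, 29 in female Y202C, with a median of -0.64, 28 in female R172H, with a median of -0.63, and 17 in male Y217C, with a median of -0.31. In male R172H 11 were lower, with a median of -0.17, and in female Y217C 6, with a median of -0.07. The lower ones were 96.7%, 96.7%, 93.3%, 56.7%, 36.7%, and 20% of the 30 in that order. Of all genes, 35.4%, 34.3%, 35.3%, 35.6%, 20.5%, and 28.7% were lower. The higher ones were 3.33%, 3.33%, 0%, 6.67%, 0%, and 6.67%, beside 37.6%, 34.3%, 34.4%, 34.9%, 20.2%, and 28% of all genes. The 2 lists did not move alike in every line, with repair gene medians of -0.14 in female Y202C and 0.05 in male R172H. Their summed level was 1400 to 1500 CPM in male Y202C, against 3180 to 3630 CPM in male KO, and 2090 to 2530 CPM in female R172H and 2320 to 2510 CPM in female Y202C, against 3560 to 3790 CPM in female KO. It was 2850 to 3360 CPM in male R172H, 2570 to 3160 CPM in male Y217C, and 3110 to 3620 CPM in female Y217C. The part of the cell cycle genes in the repair gene results was not tested.

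A further 62 genes of the same pathways were counted beside the 41. In male Y202C 40 of them were lower and 10 higher, in female R172H 31 and 11, in female Y202C 29 and 15, and in male Y217C 25 and 14. In male R172H 10 were lower and 12 higher, and in female Y217C 15 were lower and 24 higher. The lower ones were 64.5%, 50%, 46.8%, 40.3%, 16.1%, and 24.2% of the 62 in that order, beside 35.4%, 35.3%, 34.3%, 35.6%, 20.5%, and 28.7% of all genes, and the higher ones 16.1%, 17.7%, 24.2%, 22.6%, 19.4%, and 38.7%, beside 37.6%, 34.4%, 34.3%, 34.9%, 20.2%, and 28% of all genes. Their medians were -0.37, -0.19, -0.12, -0.08, -0.04, and 0.02 in that order of lines.

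**Figure D2:**
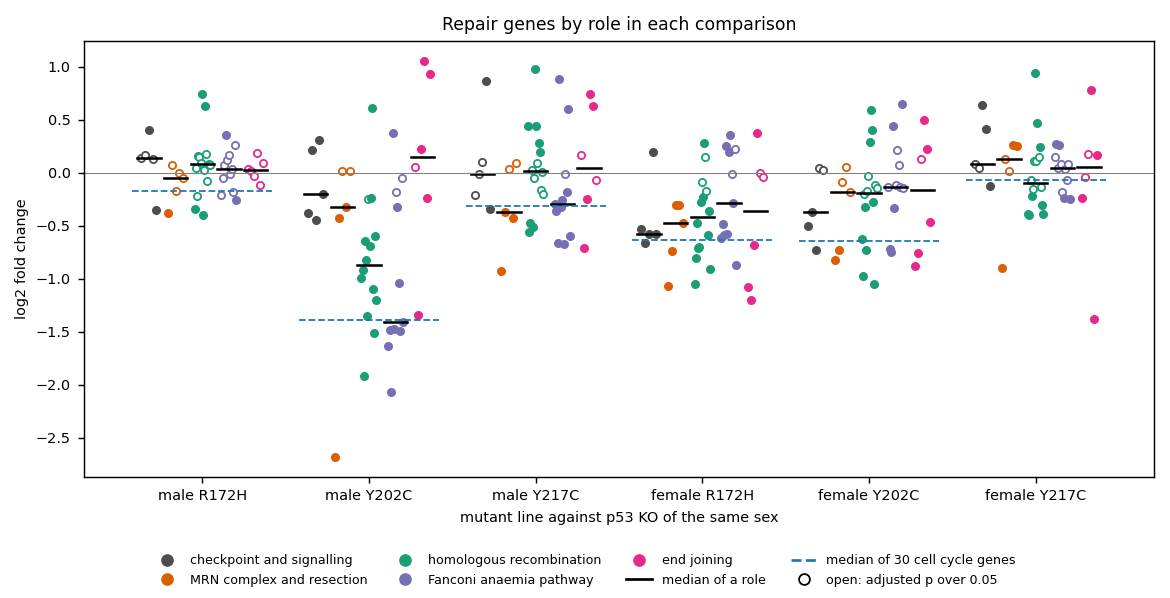
Each point is 1 repair gene, coloured by role, with its log2 fold change against the p53 KO line of the same sex (vertical axis) in each of the 6 mutant lines (horizontal axis); filled points passed the test, black bars are the median of a role, and the dashed line is the median of the 30 cell cycle reference genes. In male Y202C the homologous recombination and Fanconi medians are -0.87 and -1.41, while the end joining median is 0.15.

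Homologous recombination genes were the largest group, and 12 of 14 were lower in male Y202C and 10 of 14 in female R172H, with medians of -0.87 and -0.42. These are 85.7% and 71.4% of the 14, beside 35.4% and 35.3% of all genes. In female Y202C 6 were lower, in female Y217C 5, in male Y217C 3, and in male R172H 2. These are 42.9%, 35.7%, 21.4%, and 14.3%, beside 34.3%, 28.7%, 35.6%, and 20.5% of all genes. The higher ones were 21.4%, 21.4%, 35.7%, and 14.3%, beside 34.3%, 28%, 34.9%, and 20.2%. Medians in these 4 lines were -0.19, -0.1, 0.02, and 0.08. *Brca1* encodes a ubiquitin ligase that directs broken ends towards recombination. It stood at 36.7, 32.7, and 33.9 CPM in male KO and at 9.2, 7.9, and 10.1 CPM in male Y202C, 0.264 of the KO mean in the fit and without overlap. Its level was 31.7, 26.6, and 30.1 CPM in male R172H and 23.5, 28.3, and 22.9 CPM in male Y217C. Male Y202C thus lay far below the other male lines, which lay between 22.9 and 36.7 CPM. The log2 fold change of *Brca1* was -1.92 ± 0.108 (adjusted p = 9.12e-14) in male Y202C and -0.47 ± 0.102 (adjusted p = 0.000283) in male Y217C. In females its level was 33.2, 33.3, and 31.9 CPM in KO, 21.6, 25.7, and 23.7 CPM in R172H, 32.4, 24.2, and 29.2 CPM in Y202C, and 28.4, 33.0, and 32.7 CPM in Y217C. Only R172H passed among the female lines, at a log2 fold change of -0.47 ± 0.102 (adjusted p = 0.00024).

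*Bard1* encodes the partner of BRCA1 in the ligase, and it did not keep to 1 direction. It stood at 15.6, 13.1, and 13.3 CPM in male KO, 11.7, 10.1, and 11.5 CPM in male R172H, 7.36, 6.88, and 6.95 CPM in male Y202C, and 19.0, 20.6, and 17.4 CPM in male Y217C. Male Y217C was above every male KO library, and the other mutants were below every one. The log2 fold change was -0.99 ± 0.102 (adjusted p = 6.1e-09) in male Y202C, -0.34 ± 0.1 (adjusted p = 0.00911) in male R172H, and 0.44 ± 0.099 (adjusted p = 0.000393) in male Y217C. The call in male R172H was lost without male KO replicate 1, at -0.25, or without male R172H replicate 2, at -0.27. Female levels were 15.0, 13.6, and 13.1 CPM in KO, 5.93, 6.59, and 7.52 CPM in R172H, 9.91, 8.65, and 8.57 CPM in Y202C, and 9.42, 11.7, and 10.6 CPM in Y217C. All female mutant libraries were below all female KO libraries, with a log2 fold change of -1.05 ± 0.102 (adjusted p = 2.45e-09) in R172H, -0.62 ± 0.102 (adjusted p = 1.03e-05) in Y202C, and -0.39 ± 0.1 (adjusted p = 0.00197) in Y217C. In males *Brca1* and *Bard1* were both lower in Y202C, whereas in Y217C *Brca1* was lower and *Bard1* higher.

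The related recombination genes *Rad51b*, *Rad51c*, *Rad51d*, *Xrcc2*, and *Xrcc3* did not move as a group. *Rad51b* was the lowest repair gene per kb and stood at 0.991, 1.18, and 1.47 CPM in male KO, 1.89, 1.96, and 2.31 CPM in male R172H, 1.21, 1.0, and 0.839 CPM in male Y202C, and 2.17, 2.44, and 2.62 CPM in male Y217C. It was higher in male R172H at a log2 fold change of 0.74 ± 0.18 (adjusted p = 0.00195) and in male Y217C at 0.98 ± 0.179 (adjusted p = 3.76e-05), without overlap in either. In females it stood at 1.69, 1.24, and 1.62 CPM in KO and at 2.74, 2.93, and 3.12 CPM in Y217C, with a log2 fold change of 0.94 ± 0.178 (adjusted p = 9.06e-05), again without overlap. The R172H and Y202C lines of females, at 1.36, 1.68, and 1.27 CPM and 1.59, 1.28, and 1.6 CPM, overlapped KO and did not pass.

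*Rad51c* went down in some lines and up in others. Its level was 6.78, 7.25, and 6.8 CPM in male KO, 4.98, 5.57, and 5.22 CPM in male R172H, 4.28, 4.23, and 4.38 CPM in male Y202C, and 9.43, 9.33, and 9.55 CPM in male Y217C. The male log2 fold changes were -0.4 ± 0.081 (adjusted p = 0.000349) for R172H, -0.69 ± 0.082 (adjusted p = 6.07e-08) for Y202C, and 0.44 ± 0.08 (adjusted p = 3.12e-05) for Y217C, and none of these lines overlapped KO. *Rad51d* rose in every female mutant line. It stood at 13.2, 13.1, and 14.2 CPM in female KO, 16.8, 15.9, and 16.7 CPM in R172H, 18.7, 21.9, and 20.4 CPM in Y202C, and 19.3, 18.9, and 18.0 CPM in Y217C, all mutant libraries being above all KO libraries. The log2 fold changes of *Rad51d* were 0.28 ± 0.069 (adjusted p = 0.000821) in R172H, 0.59 ± 0.07 (adjusted p = 7.92e-08) in Y202C, and 0.47 ± 0.069 (adjusted p = 4.08e-06) in Y217C, while in males it passed only in Y202C, as lower, at -0.24 ± 0.07 (adjusted p = 0.00417). *Xrcc3*, whose product pairs with that of *Rad51c*, stood at 15.7, 14.1, and 15.3 CPM in male KO and 7.75, 5.8, and 6.02 CPM in male Y202C, and at 17.9, 15.4, and 16.7 CPM in female KO and 8.51, 8.27, and 9.88 CPM in female R172H. Neither pair overlapped, with a log2 fold change of -1.2 ± 0.116 (adjusted p = 1.97e-09) in male Y202C and -0.91 ± 0.113 (adjusted p = 1.64e-07) in female R172H. In male R172H *Xrcc3* stood at 18.8, 14.8, and 13.6 CPM and overlapped KO. *Xrcc2* was lower in 3 lines, by at most 0.6 on the log2 scale in male Y202C.

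*Rad52*, a single-strand annealing protein, was higher in all 3 male mutant lines. It stood at 8.85, 8.08, and 9.75 CPM in male KO, 14.4, 12.6, and 14.2 CPM in R172H, 13.3, 13.5, and 14.0 CPM in Y202C, and 11.1, 9.62, and 11.8 CPM in Y217C, and only Y217C overlapped KO, in 1 library. The log2 fold changes were 0.63 ± 0.086 (adjusted p = 3.58e-06), 0.61 ± 0.086 (adjusted p = 9.66e-07), and 0.28 ± 0.087 (adjusted p = 0.00564), in that order. The call in Y217C was lost without male Y217C replicate 3, at 0.21. In females it passed in Y202C alone, at a log2 fold change of 0.4 ± 0.087 (adjusted p = 0.000266). Female KO, at 10.9, 10.0, and 10.5 CPM, was above male KO in every library.

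*Rad54l*, a DNA-dependent ATPase that acts in strand invasion, was lowest in both Y202C lines. It stood at 18.3, 16.5, and 16.9 CPM in male KO and 6.5, 5.4, and 6.19 CPM in male Y202C, and at 20.4, 19.9, and 18.7 CPM in female KO and 10.6, 8.61, and 9.3 CPM in female Y202C. Neither Y202C line overlapped its KO, with a log2 fold change of -1.51 ± 0.106 (adjusted p = 5.98e-12) in males and -1.05 ± 0.104 (adjusted p = 4.59e-09) in females. *Blm*, the helicase that undoes crossed-over structures, was lower in 5 of 6 comparisons. Its level was 27.7, 26.0, and 25.0 CPM in female KO, 13.3, 16.5, and 15.5 CPM in R172H, 14.8, 11.1, and 14.2 CPM in Y202C, and 16.7, 20.4, and 22.8 CPM in Y217C. All female mutant libraries were below KO, with a log2 fold change of -0.8 ± 0.126 (adjusted p = 5.03e-06), -0.97 ± 0.129 (adjusted p = 4.59e-07), and -0.4 ± 0.126 (adjusted p = 0.0095) in that order, the last of which lost its call without female Y217C replicate 1, at -0.28. In males *Blm* fell from 19.1, 18.9, and 19.1 CPM in KO to 9.45, 9.01, and 11.7 CPM in Y202C and 11.1, 15.6, and 12.2 CPM in Y217C, with a log2 fold change of -0.92 ± 0.129 (adjusted p = 7.99e-07) and -0.56 ± 0.128 (adjusted p = 0.000477). *Palb2*, which links BRCA1 to BRCA2, and *Brca2* itself were each lower in 4 comparisons, *Palb2* by up to 0.82 and *Brca2* by up to 0.71 on the log2 scale. *Rad51ap1* was lower in 2 comparisons, by 1.35 in male Y202C, and *Rad54b* was lower in both Y202C lines and higher in both Y217C lines. The *Rad54b* calls in male Y217C and female Y217C were lost in 6 and 2 of 13 alternatives, at 0.13 to 0.22 and 0.2 to 0.24, and that in female Y202C without female Y202C replicate 3, at -0.23.

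**Figure D3:**
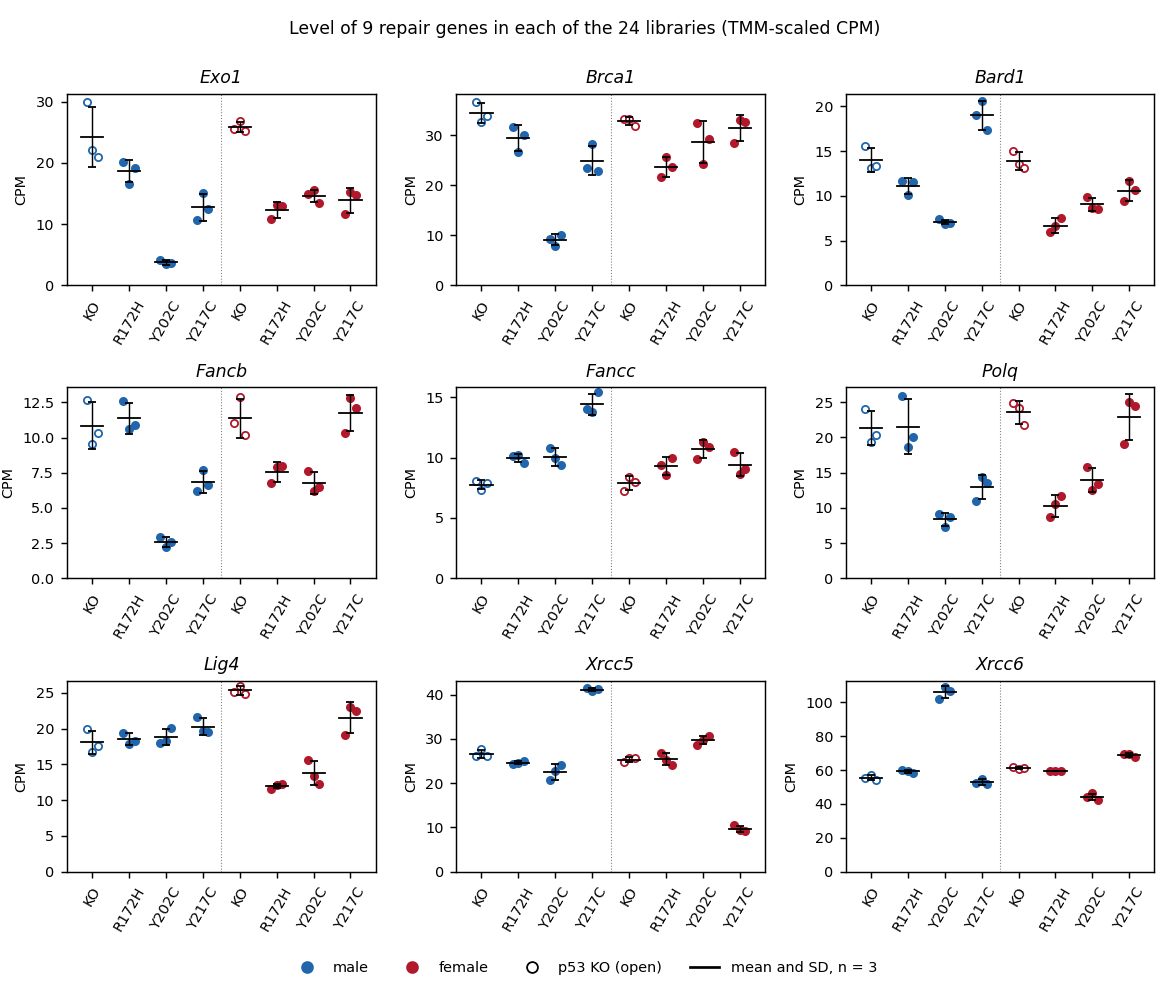
Level in CPM (vertical axis, from 0) of 9 repair genes in each of the 24 libraries, with the 8 lines along the horizontal axis, males in blue, females in red, KO libraries as open circles, and black bars for the mean and SD of the 3 libraries. *Exo1*, *Brca1*, and *Fancb* are lowest in male Y202C, *Lig4* separates female R172H and Y202C from female KO, *Xrcc5* is lowest in female Y217C and highest in male Y217C, and *Xrcc6* is highest in male Y202C.

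In the Fanconi anaemia pathway, 8 of 11 genes were lower in male Y202C, 8 in male Y217C, 6 in female R172H, 3 in female Y202C, 2 in female Y217C, and 1 in male R172H. These are 72.7%, 72.7%, 54.5%, 27.3%, 18.2%, and 9.09% of the 11. Of all genes, 35.4%, 35.6%, 35.3%, 34.3%, 28.7%, and 20.5% were lower in the same order. Female Y202C, female Y217C, and male R172H were thus under the share of all genes. Of the 8 in male Y217C, *Fanci* and *Brip1* lost the call in 7 and 8 of 13 alternatives, at -0.18 to -0.11 and -0.32 to -0.23. The medians were -1.41 in male Y202C and between -0.29 and 0.05 in the other lines. *Fancb*, an X-linked subunit of the core complex, stood at 12.7, 9.53, and 10.3 CPM in male KO, 12.6, 10.6, and 10.9 CPM in male R172H, 2.91, 2.22, and 2.59 CPM in male Y202C, and 6.23, 7.72, and 6.63 CPM in male Y217C. Y202C and Y217C lay below all KO libraries, with a log2 fold change of -2.07 ± 0.137 (adjusted p = 2e-12) and -0.66 ± 0.127 (adjusted p = 6.8e-05), and R172H overlapped KO. In females it stood at 11, 12.9, and 10.2 CPM in KO, 6.75, 7.89, and 7.99 CPM in R172H, 7.65, 6.18, and 6.48 CPM in Y202C, and 10.3, 12.8, and 12.1 CPM in Y217C. R172H and Y202C were below KO, with a log2 fold change of -0.59 ± 0.126 (adjusted p = 0.000225) and -0.75 ± 0.129 (adjusted p = 1.86e-05), and Y217C overlapped KO.

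*Brip1* encodes a helicase that binds BRCA1. It stood at 19.6, 20.1, and 18.4 CPM in male KO and 6.1, 5.51, and 7.26 CPM in male Y202C, with a log2 fold change of -1.63 ± 0.135 (adjusted p = 1.26e-10) and no overlap. In female Y202C its libraries, at 22.2, 14.9, and 18.2 CPM, overlapped those of female KO, at 20.7, 20.8, and 18.8 CPM, with a log2 fold change of -0.13 ± 0.128 (adjusted p = 0.394). The ubiquitinated pair *Fancd2* and *Fanci* fell by 1.47 and 1.49 on the log2 scale in male Y202C, and *Fanca* and *Fancm* fell by 1.48 and 1.41. *Fancg*, another core subunit, passed in male Y202C alone, where it fell by 1.04.

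*Fancc*, a core subunit, was the 1 repair gene that was higher in all 6 comparisons. It stood at 8.04, 7.31, and 7.93 CPM in male KO, 10.1, 10.2, and 9.55 CPM in R172H, 10.8, 9.94, and 9.4 CPM in Y202C, and 14.0, 13.8, and 15.4 CPM in Y217C. All male mutant libraries were above all male KO libraries, with a log2 fold change of 0.36 ± 0.088 (adjusted p = 0.00215), 0.38 ± 0.088 (adjusted p = 0.000513), and 0.89 ± 0.088 (adjusted p = 2.92e-09). In females it stood at 7.25, 8.4, and 7.94 CPM in KO, 9.42, 8.55, and 9.99 CPM in R172H, 9.89, 11.3, and 10.9 CPM in Y202C, and 10.5, 8.66, and 9.07 CPM in Y217C, again without overlap. The female log2 fold changes were 0.25 ± 0.088 (adjusted p = 0.0154), 0.44 ± 0.089 (adjusted p = 0.000114), and 0.26 ± 0.089 (adjusted p = 0.0151). The call in R172H was lost without female KO replicate 1 or female R172H replicate 3, at 0.19 in each case, and that in Y217C without female KO replicate 1, at 0.21, or female Y217C replicate 1, at 0.17. Of the exonic bases of *Fancc*, 18.6% overlap genes on the opposite strand, which include *2010111I01Rik* of the count table.

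*Fancl* encodes the ubiquitin ligase subunit of the core complex, and it was higher in male Y217C, at 4.69, 5.85, and 5.14 CPM against 3.73, 3.38, and 3.23 CPM in male KO, and in female Y202C, at 4.05, 5.47, and 4.74 CPM against 2.93, 2.97, and 3.23 CPM in female KO. Neither pair overlapped, with a log2 fold change of 0.6 ± 0.121 (adjusted p = 0.000106) and 0.65 ± 0.123 (adjusted p = 6.42e-05). *Fancf* was lower in male Y217C, at 3.88, 4.2, and 3.55 CPM against 6.5, 5.9, and 6.18 CPM in KO, and higher in female R172H, at 9.83, 8.34, and 9.03 CPM against 6.95, 7.04, and 7.21 CPM in KO. The log2 fold changes of *Fancf* were -0.67 ± 0.104 (adjusted p = 3.78e-06) and 0.36 ± 0.099 (adjusted p = 0.00266), without overlap in either. Of its exonic bases, 15% overlap *Gas2* on the opposite strand. All 3 other tested genes within 1.5 Mb were higher in female R172H, beside 34.4% of all genes, with a median of 2.71. In male Y217C 2 of them were lower and 1 higher, beside 35.6% and 34.9%, with a median of -0.53. The part of these genes in the *Fancf* values was not tested. *Fance*, which binds FANCD2 to the core complex, had a log2 fold change of no more than 0.26 in size in any line.

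The MRN complex and resection genes were lower in female R172H for 5 of 5, with a median of -0.47, beside 35.3% of all genes. They were lower in male Y202C and male Y217C for 3 of 5 (60%), beside 35.4% and 35.6% of all genes. *Exo1*, an exonuclease that lengthens the resected strand, accounted for the largest change of any repair gene. It stood at 29.9, 22.1, and 20.9 CPM in male KO, 20.2, 16.6, and 19.2 CPM in male R172H, 4.17, 3.49, and 3.61 CPM in male Y202C, and 10.7, 15.1, and 12.4 CPM in male Y217C. All male mutant libraries were below all KO libraries, and the fitted level in Y202C was 0.156 of that in KO. The log2 fold changes of *Exo1* were -0.38 ± 0.129 (adjusted p = 0.0232) in male R172H, -2.68 ± 0.145 (adjusted p = 4.18e-14) in male Y202C, and -0.93 ± 0.132 (adjusted p = 1.14e-06) in male Y217C. The call in male R172H was lost without male KO replicate 1, at -0.2, or without male R172H replicate 2, at -0.3.

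*Exo1* was lower in the female mutant lines as well. Its level was 25.6, 26.8, and 25.3 CPM in KO, 10.8, 13.2, and 13.0 CPM in R172H, 14.9, 15.5, and 13.5 CPM in Y202C, and 11.6, 15.3, and 14.7 CPM in Y217C. No female mutant library reached the KO range, with a log2 fold change of -1.07 ± 0.131 (adjusted p = 1.21e-07), -0.82 ± 0.132 (adjusted p = 6.82e-06), and -0.9 ± 0.131 (adjusted p = 3.3e-06) in that order. *Mre11a*, the nuclease of the MRN complex, was lower in 4 comparisons, by 0.73 to 0.74 in female Y202C and female R172H and by 0.37 to 0.43 in male Y217C and male Y202C. *Rad50*, its ATPase, stood at 57.9, 58.0, and 56.0 CPM in male KO and 41.9, 46.3, and 39.2 CPM in male Y217C, and at 62.0, 59.6, and 61.9 CPM in female KO and 65.8, 76, and 78.1 CPM in female Y217C. *Rad50* was thus lower in male Y217C, at a log2 fold change of -0.43 ± 0.081 (adjusted p = 5.26e-05), and higher in female Y217C, at 0.26 ± 0.081 (adjusted p = 0.00847), without overlap in either. *Nbn*, the third subunit, varied least over the 8 lines of all repair genes, with a highest mean 1.25 times the lowest, and passed in female R172H alone. *Rbbp8*, which starts resection, was lower in female R172H and higher in female Y217C, where the call was lost without female KO replicate 3, female Y217C replicate 2, or female Y217C replicate 3, at 0.21 to 0.22.

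Checkpoint genes went in both directions. *Chek1* encodes the kinase downstream of ATR, and it stood at 17.0, 15.9, and 14.7 CPM in male KO and 20.7, 19.8, and 22.1 CPM in male R172H, with a log2 fold change of 0.4 ± 0.106 (adjusted p = 0.00424) and no overlap. It was lower in male Y202C, at 10.8, 10.7, and 13.8 CPM, with -0.44 ± 0.108 (adjusted p = 0.000894) and no overlap. Male Y217C, at 15.9, 19.9, and 15.1 CPM, overlapped KO and did not pass. In females it stood at 16.9, 16.2, and 16.0 CPM in KO, 10.1, 12.2, and 10.5 CPM in R172H, 10.9, 8.92, and 9.94 CPM in Y202C, and 23.3, 26.9, and 26.3 CPM in Y217C. Thus R172H and Y202C were below KO, at a log2 fold change of -0.58 ± 0.107 (adjusted p = 3.96e-05) and -0.73 ± 0.11 (adjusted p = 3.21e-06), and Y217C above it, at 0.64 ± 0.106 (adjusted p = 1.8e-05). *Chek2* encodes the kinase downstream of ATM, and it was higher in 4 comparisons and never lower. It stood at 10.3, 12.1, and 11.1 CPM in male KO and 19.1, 21.4, and 20.7 CPM in male Y217C, with a log2 fold change of 0.87 ± 0.074 (adjusted p = 2.19e-10), and at 10.9, 10.7, and 11.1 CPM in female KO and 14.0, 15.2, and 14.1 CPM in female Y217C, with 0.41 ± 0.074 (adjusted p = 5.84e-05). Neither Y217C line overlapped its KO. In female R172H the *Chek2* call was lost without female KO replicate 2, female R172H replicate 2, or female R172H replicate 3, at 0.15 to 0.19.

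*Trp53bp1* encodes 53BP1, which shields broken ends from resection, and it was lower in all 3 male mutant lines and female R172H. It stood at 66.8, 67.8, and 69.4 CPM in male KO, 53.4, 55.3, and 51.8 CPM in R172H, 62.0, 60, and 56.2 CPM in Y202C, and 53.6, 55.4, and 52.3 CPM in Y217C. The male libraries of the mutants were all below KO, with a log2 fold change of -0.35 ± 0.049 (adjusted p = 4.53e-06), -0.2 ± 0.049 (adjusted p = 0.000974), and -0.34 ± 0.049 (adjusted p = 1.35e-06). In female R172H it stood at 44.1, 42.7, and 42.6 CPM against 63.3, 67.2, and 63.3 CPM in KO, with a log2 fold change of -0.58 ± 0.049 (adjusted p = 2.14e-10). In female Y217C it passed at a log2 fold change of -0.12 ± 0.049 (adjusted p = 0.0455), a call lost in 9 of 13 alternatives, which include the replicate block, at -0.12, and the omission of any 1 of the 6 libraries, at -0.13 to -0.09. Of its exonic bases, 15% overlap *Tubgcp4* on the opposite strand. *Atm* was lower in male Y202C, female R172H, and female Y202C, by 0.38, 0.53, and 0.5 on the log2 scale. *Atr* was lower in female R172H and female Y202C, by 0.66 and 0.37, and was higher in male Y202C, at a log2 fold change of 0.22 ± 0.082 (adjusted p = 0.019), with overlapping libraries. That call was lost in 5 of 13 alternatives, with upper-quartile factors at 0.12, a filter at 5 CPM at 0.17, only the lines compared at 0.19, without male KO replicate 2 at 0.17, and without male Y202C replicate 3 at 0.14.

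The end joining genes did not share a direction. In male Y202C, 3 of 6 were higher (50%) and 2 lower (33.3%), near the 37.6% and 35.4% of all genes, and in every line *Xrcc4* had a positive log2 fold change. *Xrcc4*, the scaffold of DNA ligase IV, stood at 5.1, 5.14, and 4.59 CPM in male KO, 5.38, 5.97, and 5.58 CPM in R172H, 9.72, 9.07, and 12.1 CPM in Y202C, and 8.53, 7.26, and 8.97 CPM in Y217C. All male mutant libraries were above KO, and Y202C and Y217C passed, with a log2 fold change of 1.06 ± 0.132 (adjusted p = 1.24e-07) and 0.74 ± 0.132 (adjusted p = 2.6e-05), while R172H did not, with 0.19 ± 0.133 (adjusted p = 0.266). In females it stood at 3.87, 4.89, and 3.67 CPM in KO, 6.36, 5.09, and 4.76 CPM in R172H, 6.2, 5.15, and 6.21 CPM in Y202C, and 6.41, 7.25, and 7.68 CPM in Y217C. Only R172H overlapped KO, and the log2 fold changes were 0.38 ± 0.134 (adjusted p = 0.0137), 0.5 ± 0.136 (adjusted p = 0.0023), and 0.78 ± 0.134 (adjusted p = 2.89e-05). The call in female R172H was lost without female KO replicate 1, at 0.34, without female KO replicate 3, at 0.3, or without female R172H replicate 1, at 0.25. The ligase itself, *Lig4*, did not follow its scaffold. It stood at 25.1, 26.0, and 24.9 CPM in female KO, 11.6, 12.1, and 12.2 CPM in R172H, 15.6, 13.4, and 12.3 CPM in Y202C, and 19.1, 23, and 22.5 CPM in Y217C. All were below KO, with a log2 fold change of -1.08 ± 0.084 (adjusted p = 5.03e-11), -0.88 ± 0.085 (adjusted p = 2.81e-09), and -0.24 ± 0.083 (adjusted p = 0.0185). The call in female Y217C was lost without female KO replicate 2, at -0.22, or female Y217C replicate 1, at -0.16. In males it stood at 19.9, 16.7, and 17.6 CPM in KO and 19.4, 17.9, and 18.3 CPM in R172H, and the 4 male lines lay between 16.7 and 21.6 CPM without a call.

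The Ku genes *Xrcc5* and *Xrcc6*, whose products bind broken ends as a pair, changed apart from each other. *Xrcc6* stood at 55.4, 57.2, and 54.1 CPM in male KO and 102, 109, and 107 CPM in male Y202C, with a log2 fold change of 0.93 ± 0.042 (adjusted p = 1.61e-15), and it was lower in female Y202C, at 44.1, 46.2, and 42.5 CPM against 61.9, 60.4, and 61.0 CPM in female KO, with -0.46 ± 0.043 (adjusted p = 1.24e-09). Neither pair overlapped. *Xrcc5* in the same male Y202C libraries stood at 20.6, 22.8, and 24 CPM against 26.1, 27.6, and 26.0 CPM in KO, with a log2 fold change of -0.24 ± 0.06 (adjusted p = 0.000901). In male Y217C *Xrcc5* stood at 41.5, 40.7, and 41.2 CPM, with a log2 fold change of 0.63 ± 0.06 (adjusted p = 1.46e-09). Female Y217C had the lowest *Xrcc5* of all lines, at 10.5, 9.34, and 9.2 CPM against 24.7, 25.6, and 25.6 CPM in female KO, with a log2 fold change of -1.38 ± 0.063 (adjusted p = 1.23e-14) and no overlap. *Xrcc6* in female Y217C stood at 69.5, 69.4, and 67.8 CPM, with a log2 fold change of 0.17 ± 0.042 (adjusted p = 0.00121).

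*Polq* encodes the polymerase of theta-mediated end joining, a route that uses short homologies in resected ends, and it was lower in 4 comparisons. It stood at 24, 19.4, and 20.4 CPM in male KO, 25.9, 18.6, and 20.1 CPM in R172H, 9.14, 7.29, and 8.69 CPM in Y202C, and 11, 14.4, and 13.5 CPM in Y217C. Y202C and Y217C were below KO, with a log2 fold change of -1.34 ± 0.141 (adjusted p = 7.73e-09) and -0.71 ± 0.137 (adjusted p = 6.95e-05), and R172H overlapped KO. In females it stood at 24.8, 24.2, and 21.7 CPM in KO, 8.64, 10.5, and 11.7 CPM in R172H, 15.8, 12.6, and 13.4 CPM in Y202C, and 19.1, 25.0, and 24.5 CPM in Y217C. R172H and Y202C were below KO, with a log2 fold change of -1.2 ± 0.138 (adjusted p = 4.61e-08) and -0.76 ± 0.138 (adjusted p = 3.61e-05), and Y217C overlapped KO. *Prkdc*, the kinase that the Ku pair recruits, was lower in female R172H by 0.68 and in male Y217C by 0.25 on the log2 scale, and was higher in male Y202C at 0.23 ± 0.086 (adjusted p = 0.0189). The last call was lost with upper-quartile factors, at 0.13, with a filter at 5 CPM, at 0.18, and without male KO replicate 1, male Y202C replicate 1, or male Y202C replicate 3, at 0.19 to 0.22.

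*Xrcc5* and *Bard1* lie within 1.5 Mb of each other on chromosome 1, and the genes around *Xrcc5* were listed because its change in female Y217C went against its change in male Y217C. Of the 11 other tested genes within 1.5 Mb of *Xrcc5*, 10 were lower in female Y217C, beside 28.7% of all genes, with a median log2 fold change of -0.69. They included *Igfbp2* at -4.0, *Igfbp5* at -1.96, *Smarcal1* at -0.64, *Fn1* at -0.69, and *Bard1* at -0.39, and *Tmem169* alone did not pass, at -0.09. In male Y217C 6 of the 11 were lower and 3 higher, beside 35.6% and 34.9% of all genes, with a median of -0.56. The neighbours above 0 there were *Igfbp5* at 1.81, *Bard1* at 0.44, and *Smarcal1* at 0.35. In female R172H 4 of the 11 were lower and 4 higher, beside 35.3% and 34.4% of all genes. In male R172H 6 were lower and 0 higher, beside 20.5% and 20.2%, with a median of -0.39. All 11 were below 0 there, and *Xrcc5* was not called, at -0.11. In male Y202C 7 were lower and 2 higher, beside 35.4% and 37.6%, with a median of -0.38 and *Xrcc5* at -0.24. In female Y202C 3 were lower and 4 higher, beside 34.3% and 34.3%. The part of the neighbouring genes in the change of *Xrcc5* was not tested.

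**Figure D4:**
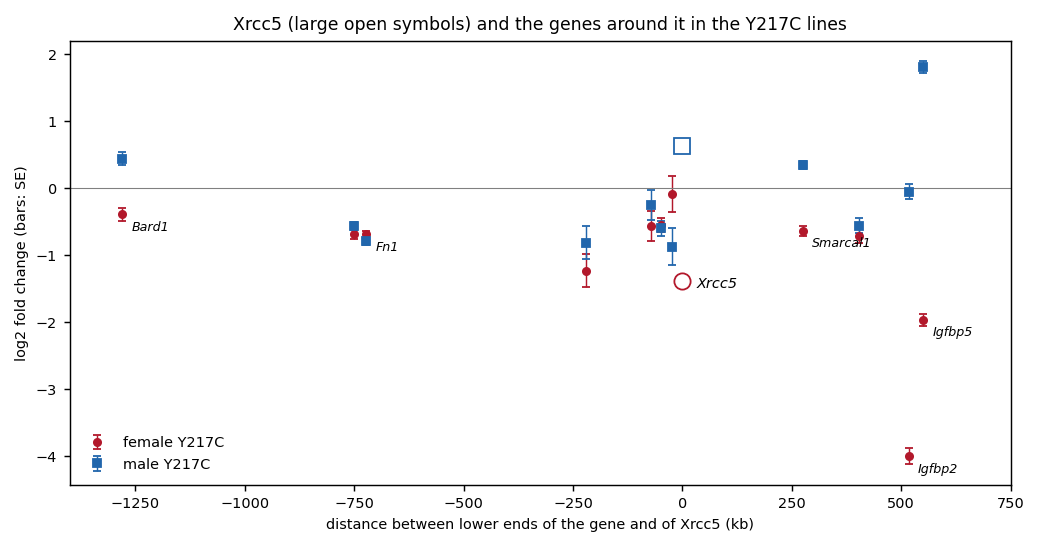
Log2 fold change (vertical axis, bars are SE) of the genes within 1.5 Mb of *Xrcc5*, placed by the distance between their lower ends and that of *Xrcc5* in kb (horizontal axis), in female Y217C (red circles) and male Y217C (blue squares) against KO of the same sex, with *Xrcc5* as the large open symbols. All female points lie below 0, down to -4.0 for *Igfbp2*, and in males *Xrcc5*, *Bard1*, *Smarcal1*, and *Igfbp5* lie above 0.

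Whether a mutation acted differently in males and females was tested as the difference between its effects, male minus female, in the same fit. For R172H, 26 of 41 repair genes had a higher effect in males, beside 29.7% of all genes, and 2 a lower one, beside 28.3%, with a median difference of 0.43. The largest differences on the log2 scale were *Polq* at 1.22 ± 0.192 (adjusted p = 8.37e-06), *Lig4* at 1.12 ± 0.118 (adjusted p = 1.92e-08), *Chek1* at 0.98 ± 0.15 (adjusted p = 6.01e-06), and *Xrcc3* at 0.98 ± 0.158 (adjusted p = 1.22e-05). *Polq*, *Lig4*, and *Xrcc3* were lower in female R172H and had log2 fold changes of 0.02 to 0.07 in size, without a call, in male R172H, whereas *Chek1* was lower in the female line and higher in the male line. For Y202C the balance was the other way, with 24 lower, beside 33.5% of all genes, and 6 higher, beside 34.5%, and a median of -0.38. The largest differences on the log2 scale were *Exo1* at -1.86 ± 0.193 (adjusted p = 8.66e-09), *Brca1* at -1.72 ± 0.148 (adjusted p = 2.94e-10), *Brip1* at -1.5 ± 0.186 (adjusted p = 1.47e-07), and *Xrcc6* at 1.4 ± 0.06 (adjusted p = 7.93e-16). Of the Fanconi genes 9 of 11 had a lower effect in male Y202C than in female Y202C, and of the recombination genes 10 of 14.

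For Y217C, 15 were lower, beside 27.4% of all genes, and 8 higher, beside 27.5%, with a median of -0.11. *Xrcc5* had the largest difference of the repair genes under any mutation, at a log2 difference of 2.02 ± 0.087 (adjusted p = 1.48e-15). On the same log2 scale, *Bard1* followed at 0.83 ± 0.141 (adjusted p = 2.29e-05), then *Fancb* at -0.71 ± 0.178 (adjusted p = 0.00166) and *Rad50* at -0.69 ± 0.114 (adjusted p = 1.65e-05). The cell cycle reference genes had a higher effect in males for 24 of 30 under R172H, a lower one for 24 of 30 under Y202C, and a lower one for 13 of 30 under Y217C, with medians of 0.52, -0.78, and -0.26. These are 80%, 80%, and 43.3% of the 30, beside 29.7%, 33.5%, and 27.4% of all genes. Their part in the repair gene differences was not tested.

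**Figure D5:**
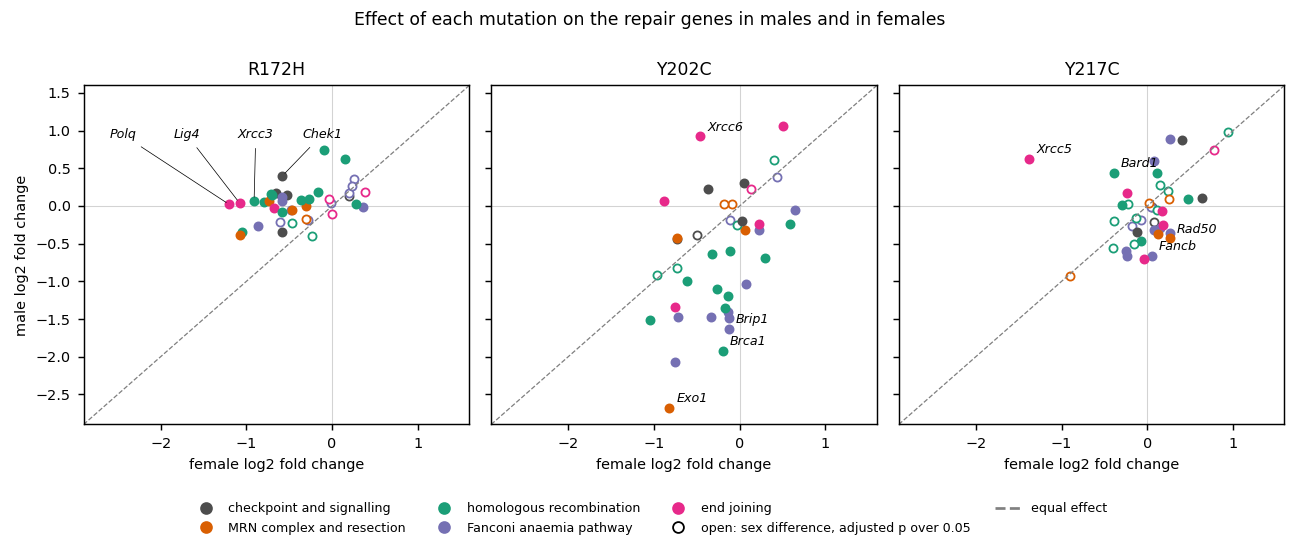
Log2 fold change of each repair gene in males (vertical axis) against that in females (horizontal axis) for R172H, Y202C, and Y217C, coloured by role; filled points have a difference between the sexes that passed the test, and the dashed line marks equal effects. Under R172H most points lie above the line, under Y202C most lie below it with *Exo1*, *Brca1*, and *Brip1* the farthest down, and under Y217C *Xrcc5* stands alone at the upper left.

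The KO lines were compared with each other as well. None of the 41 was higher in male KO than in female KO, beside 17.2% of all genes, and 5 were lower, beside 13.8%. Their log2 differences, male minus female KO, were *Lig4* at -0.49 ± 0.083 (adjusted p = 5.58e-05), *Blm* at -0.46 ± 0.125 (adjusted p = 0.00598), *Palb2* at -0.33 ± 0.122 (adjusted p = 0.042), *Rad52* at -0.24 ± 0.086 (adjusted p = 0.0389), and *Xrcc6* at -0.14 ± 0.042 (adjusted p = 0.0147). At an unadjusted edgeR p under 0.05, 1 gene was higher and 9 were lower. At the adjusted threshold, limma voomWithQualityWeights called 1 higher and 16 lower, edgeR with only the lines compared called 1 higher and 11 lower, and DESeq2 called 0 higher and 6 lower. The share of all genes called by each alternative is not given here. These counts therefore cannot be set against the 17.2% and 13.8% of the main fit. The 5 lower genes became 3 without male KO replicate 2, male KO replicate 3, or female KO replicate 3, and 2 without female KO replicate 1. Without female KO replicate 2, 1 gene was higher. Since *Lig4*, *Blm*, and *Rad52* started from other levels in the KO lines of each sex, their male and female effects were measured from different baselines.

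Promoter windows were read for the 41 genes from RefSeq sequences on GRCm38.p6, 250 bases before and 50 after each start site, and 32 genes had an entry. Octamers bound by E2F factors (TTTGGCGC, TTTCCCGC, TTTGGCGG, TTTCCCGG, and TTTCGCGC, on both strands) were in the windows of 7 of the 32 genes (21.9%), against 4.1% of 27025 genes with a window. These were *Bard1*, *Brca2*, *Chek1*, *Chek2*, *Fancg*, *Rad51c*, and *Xrcc6*. The NF-Y pentamer CCAAT was in 19 of 32 (59.4%), against 41.1% of all genes. The CHR hexamer TTTGAA was in 3 of 32 (9.38%), against 20.2%, and the p53 decamer half-site in 3 of 32 (9.38%), against 9.55%. Matches are matches of letters, and a window without one says nothing about the factor. The windows of 7 genes are shown, chosen after their values were seen. *Bard1* and *Polq* were lower in many lines, *Fancb* and *Brip1* had their largest fall in male Y202C, and *Fancg* passed there alone. *Chek1* was higher in 2 comparisons and lower in 3, and *Xrcc6* was higher in 2 and lower in 1. The windows are written 5′ to 3′ on the strand of the gene, with the matched letters in capitals.
The windows are *Bard1* at chr1:71102923-71103222 on the minus strand, *Chek1* at chr9:36726609-36726908 on the minus strand, *Fancg* at chr4:43010252-43010551 on the minus strand, *Brip1* at chr11:86201144-86201443 on the minus strand, *Fancb* at chrX:164980342-164980641 on the plus strand, *Polq* at chr16:37011536-37011835 on the plus strand, and *Xrcc6* at chr15:82016119-82016418 on the plus strand.
Bard1: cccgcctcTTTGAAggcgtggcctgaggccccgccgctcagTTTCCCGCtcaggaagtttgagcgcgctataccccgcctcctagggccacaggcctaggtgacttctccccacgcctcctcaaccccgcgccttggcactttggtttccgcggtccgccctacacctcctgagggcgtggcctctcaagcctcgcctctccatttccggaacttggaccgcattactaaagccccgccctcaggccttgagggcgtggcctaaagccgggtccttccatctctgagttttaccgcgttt
Chek1: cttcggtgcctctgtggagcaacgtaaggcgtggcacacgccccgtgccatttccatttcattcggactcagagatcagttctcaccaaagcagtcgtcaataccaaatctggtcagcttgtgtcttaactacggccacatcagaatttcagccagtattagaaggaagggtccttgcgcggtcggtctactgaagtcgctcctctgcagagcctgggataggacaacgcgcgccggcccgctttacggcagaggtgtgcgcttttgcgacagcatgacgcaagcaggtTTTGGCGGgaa
Fancg: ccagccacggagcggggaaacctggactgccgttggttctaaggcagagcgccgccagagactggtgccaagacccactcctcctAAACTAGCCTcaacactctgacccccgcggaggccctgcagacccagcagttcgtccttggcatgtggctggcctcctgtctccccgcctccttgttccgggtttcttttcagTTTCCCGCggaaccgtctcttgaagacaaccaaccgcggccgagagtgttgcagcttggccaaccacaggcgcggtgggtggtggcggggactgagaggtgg
Brip1: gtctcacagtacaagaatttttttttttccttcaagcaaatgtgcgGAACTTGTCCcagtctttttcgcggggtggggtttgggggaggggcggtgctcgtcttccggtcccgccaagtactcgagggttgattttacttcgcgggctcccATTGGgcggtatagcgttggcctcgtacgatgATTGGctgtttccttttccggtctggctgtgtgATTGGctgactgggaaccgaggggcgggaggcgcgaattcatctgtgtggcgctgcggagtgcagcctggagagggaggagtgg
Fancb: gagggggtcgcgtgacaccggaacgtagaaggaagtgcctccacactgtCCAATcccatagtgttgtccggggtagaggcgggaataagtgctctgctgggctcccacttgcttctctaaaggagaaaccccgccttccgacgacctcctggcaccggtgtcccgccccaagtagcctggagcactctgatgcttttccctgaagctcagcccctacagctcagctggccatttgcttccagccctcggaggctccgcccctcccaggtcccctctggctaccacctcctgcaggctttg
Polq: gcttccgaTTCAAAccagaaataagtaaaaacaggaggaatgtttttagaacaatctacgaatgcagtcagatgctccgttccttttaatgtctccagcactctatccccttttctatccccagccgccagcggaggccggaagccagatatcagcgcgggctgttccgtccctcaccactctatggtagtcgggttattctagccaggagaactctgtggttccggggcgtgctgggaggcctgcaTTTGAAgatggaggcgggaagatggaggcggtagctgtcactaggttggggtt
Xrcc6: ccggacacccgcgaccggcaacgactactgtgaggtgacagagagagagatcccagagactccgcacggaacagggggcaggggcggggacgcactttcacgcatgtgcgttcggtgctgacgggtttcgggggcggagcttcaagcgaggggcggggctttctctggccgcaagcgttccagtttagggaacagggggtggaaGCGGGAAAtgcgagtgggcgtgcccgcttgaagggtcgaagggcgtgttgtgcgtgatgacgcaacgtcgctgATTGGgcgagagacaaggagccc
In *Bard1* the capitals mark a CHR hexamer 242 bases and an E2F octamer 209 bases before the start site, and in *Chek1* an E2F octamer 39 bases after it. In *Fancg* they mark a p53 decamer half-site 165 bases and an E2F octamer 52 bases before the start, and in *Brip1* a p53 decamer half-site 204 bases and 3 NF-Y pentamers on the opposite strand 99, 67, and 34 bases before it. The *Fancb* window holds an NF-Y pentamer 201 bases before the start. The *Polq* window holds CHR hexamers 242 bases before it on the opposite strand and 3 bases before it, and the *Xrcc6* window an E2F octamer 46 bases before and an NF-Y pentamer 27 bases after the start, both on the opposite strand. Genes that share the E2F octamer did not share a direction. In male Y202C *Bard1*, *Brca2*, *Chek1*, *Fancg*, and *Rad51c* were lower, and *Chek2* and *Xrcc6* were higher.

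In the GENCODE M21 annotation of GRCm38, positions are *Exo1* chr1:175880581-175913489, *Fancc* chr13:63285043-63497278, *Bard1* chr1:71027498-71103146, *Xrcc5* chr1:72307421-72394952, and *Xrcc6* chr15:81987835-82040085. The 41 genes lie on 16 chromosomes, and 19 of them share exonic bases with another annotated gene, 8 with more than 10% of their exonic bases. These are *Rad54b* (35.9%, with *Fsbp* on the same strand and *Gm11832* on the other), *Fancc* (18.6%), *Fanci* (16%, with *Polg*), *Rad54l* (15.4%, with *Lrrc41*), *Trp53bp1* (15%, with *Tubgcp4*), *Fancf* (15%, with *Gas2*), *Fancl* (13.7%, with *Vrk2*), and *Fanca* (10.5%, with *Zfp276*). The strand of counting is not given in the sources used here, so reads of these stretches may come from either gene, and the values of these 8 genes are uncertain to that extent.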

How the data were processed

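RNA was sequenced from 24 libraries of 8 mouse astrocyte lines. The authors mapped reads with STAR 2.5.1a, assigned those with a single alignment and a single gene by featureCounts of Subread, and deposited raw counts, with no normalization, for 14427 genes after removing low ones. Every deposited gene exceeds 1 CPM in at least 3 libraries. The strand of counting is not given in the sources used here. Ensembl identifiers were matched to GENCODE M21 symbols, which named 14350 of 14427, and the CPM were computed here from the counts after TMM scaling.

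A quasi-likelihood model was fitted to the counts of all 24 libraries in edgeR 4.0.16 (R 4.3.3), each line having its own mean. Each mutant was compared with the KO of its sex, the male effect with the female effect, and male KO with female KO. Benjamini-Hochberg adjustment of p-values ran over all 14427 genes, and 0.05 was the threshold. The SE is the absolute log2 fold change divided by the square root of its F statistic. The model was tested on simulated counts drawn with the spread of the fit. Those held changes in a single line and in far fewer genes than were called here, so they do not cover changes of this extent. With library totals of 52787288 or more, every repair gene had at least 55 counts. The part of counting error in the SE was not tested. All replicates of a line differed beyond sampling noise and were counted separately.

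Values of every library of the lines compared are given for the 3 largest rises and falls per comparison among genes past the threshold, for genes past it in all 6, and for the 4 largest sex differences per mutation, and for *Trp53*. The neighbours of *Xrcc5* were named after their values were seen. The 41 genes and the other lists were chosen with earlier results of these data known. Promoters are RefSeq sequences on GRCm38.p6. Alternatives were DESeq2 1.42.0, limma 3.58.1 with voomWithQualityWeights, DESeq2 size factors and upper-quartile factors in edgeR, a filter at 5 CPM, only the lines compared, a replicate block, stricter thresholds, and leaving out each library in turn. Figures were drawn in Python 3.11.15 with matplotlib 3.10.9.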

Additional observations from a re-analysis of the deposited data

Results flagged for a closer look

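For 12 results, 4 per mutation, the effect of a mutation in males differed from its effect in females by edgeR's quasi-likelihood test of the difference itself, with 3 libraries in each of the 4 lines. The values are the male log2 fold change minus the female one. Under R172H, *Polq* (1.22, adjusted p = 8.37e-06) and *Lig4* (1.12, adjusted p = 1.92e-08) differed most, and all 3 libraries of female R172H, but not those of male R172H, were below their KO range for both. *Chek1* (0.98, adjusted p = 6.01e-06) was above the KO range in male R172H and below it in female R172H, and *Xrcc3* (0.98, adjusted p = 1.22e-05) was below it in female R172H alone.

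Under Y202C, *Exo1* (-1.86, adjusted p = 8.66e-09) was below the KO range in both sexes and by more in males, and *Brca1* (-1.72, adjusted p = 2.94e-10) and *Brip1* (-1.5, adjusted p = 1.47e-07) were below it in males and overlapped it in females. *Xrcc6* (1.4, adjusted p = 7.93e-16) was above the KO range in all 3 male Y202C libraries and below it in all 3 female ones. Under Y217C, *Xrcc5* (2.02, adjusted p = 1.48e-15), the gene of a Ku subunit, was above the KO range in males and below it in females, as was *Bard1* (0.83, adjusted p = 2.29e-05), which lies on the same chromosome. *Rad50* (-0.69, adjusted p = 1.65e-05) was below the KO range in males and above it in females, and *Fancb* (-0.71, adjusted p = 0.00166) was below it in males and overlapped it in females. The sex of a line cannot be told apart from its culture in any of these results.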

How the results depend on the processing

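Of 849 alternatives tried for the 60 single-gene results picked by size, 837 kept the direction and the side of the threshold, 12 lost the call when 1 library was left out, as given beside *Bard1*, *Blm*, *Exo1*, *Fancc*, and *Xrcc4*, and none turned the direction. Of 273 alternatives for the 17 counts of repair genes, 236 stayed within 1.5 times the count reported, and the cause of the other 37 was not tested, apart from the stricter thresholds, which by construction leave fewer genes. The share of all genes under each alternative is not given here, so the counts below say nothing about an excess among repair genes. With limma voomWithQualityWeights, 9 genes were higher and 9 lower in male R172H, and 1 was higher and 16 lower in male KO than in female KO. With only the lines compared in the fit, 8 were lower in male R172H, and 1 was higher and 11 lower in male KO. Upper-quartile factors left 2 lower in male KO, and moved the median of all genes by up to 0.103 on the log2 scale, against at most 0.019 with DESeq2 size factors. With an absolute log2 fold change above 0.5, 2 genes were higher and 0 lower in male R172H, 3 higher in male Y202C, 6 higher and 7 lower in male Y217C, 0 higher in female R172H, 3 higher in female Y202C, 3 higher and 2 lower in female Y217C, and 0 lower in male KO, and the effect differed between the sexes for 18 genes under R172H and 9 under Y217C. At an adjusted p of 0.01 or less, 3 were lower in male R172H, 2 higher in female R172H, 7 higher and 6 lower in female Y217C, and 2 lower in male KO. Leaving out each library in turn gave 2 to 5 lower genes in male R172H, 3 to 5 higher ones in female R172H, 5 to 9 lower ones in female Y217C, and 0 to 1 higher and 2 to 6 lower ones in male KO than in female KO.

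Replicate numbers showed no pairing that held over all comparisons. Over the 6 comparisons, correlations between the deviations of libraries with the same number ranged from -0.28 to 0.406. All 3 were above 0 in male R172H, at 0.087 to 0.406, and in male Y202C, at 0.012 to 0.089. In the other comparisons they were of mixed sign or below 0. With the replicate block, 9 genes were higher and 15 lower in male Y217C, with the calls of *Rad54b*, *Fanci*, and *Brip1* lost, and 9 were lower in female Y217C, with those of *Trp53bp1* and *Fancf* lost. The effect of Y217C then differed between the sexes for 22 genes, and 4 were lower in male KO. No other of the 6 comparisons with KO lost a call under the block. Each line is 1 culture, so culture, virus, and passage could not be varied.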

Other observations

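The chromosomal surroundings of other repair genes were counted in the same way as those of *Xrcc5*. Around *Lig4*, 9 other tested genes lie within 1.5 Mb, and 7 of them were lower in female R172H and 7 in female Y202C, beside 35.3% and 34.3% of all genes, with median log2 fold changes of -0.44 and -0.57, beside -1.08 and -0.88 for *Lig4* itself. In female Y217C 7 of the 9 were lower as well and 0 higher, beside 28.7% and 28% of all genes. The median there was -0.38, beside -0.24 for *Lig4*. Around *Mre11a*, 16 of 25 genes were lower in female R172H and 16 in female Y202C, beside 35.3% and 34.3% of all genes, with medians of -0.46 and -0.55. The opposite arrangement was seen around *Rad54l*, which fell by 1.51 in male Y202C while 29 of its 43 neighbours were higher, beside 37.6% of all genes, with a median of 0.47. Around *Fancb*, which fell by 2.07 in male Y202C, 7 of 14 neighbours were higher and 2 lower, beside 37.6% and 35.4% of all genes. These windows were picked after their values were seen.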
